A study of Mus musculus with 37 samples.

Results

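The 35 genes described here mark mural cells, fibroblasts and meningeal cells, and were measured in RNA from magnetically selected cortical astrocytes of mice after controlled cortical impact (CCI). They were chosen by name, as a list of symbols matched to Ensembl gene identifiers, and all 35 were present among the 21975 genes of the ipsilateral and contralateral tables. The list was divided by role into 9 pericyte genes, 5 smooth muscle genes, 9 genes of fibroblast matrix, 8 genes of meningeal factors, among them the growth factor gene Igf2, and 4 meningeal transporters. All mice are described in the methods as male CD1, while the sample labels give the strain as WT CD31. Injured mice received a severe CCI over the right parietal cortex and sham mice a craniectomy, and mice of every group carried implanted EEG electrodes. Injured mice were divided by the EEG into those with post-traumatic epilepsy (PTE+) and those without it (PTE-). At 4 months after surgery the cortex of each hemisphere was dissociated, and cells were pulled out magnetically by ACSA-2, a surface antigen of astrocytes. The ipsilateral cortex gave 4 PTE+, 10 PTE- and 5 sham libraries and the contralateral cortex 4 PTE+, 9 PTE- and 5 sham libraries, 37 in all, with both hemispheres present for 17 mice.

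Mural cells wrap the endothelial tube of brain vessels. Pericytes lie on capillaries and help to maintain the blood-brain barrier, and depend on platelet-derived growth factor signalling through PDGFRB, whereas smooth muscle cells form the contractile coat of arterioles and arteries. Fibroblasts of the meninges and of the space around larger vessels lay down fibrillar collagens and proteoglycans, and meningeal cells also make retinoic acid, synthesise prostaglandin D2 and carry solutes with a distinct set of transporters. Astrocyte endfeet touch the vessel wall and the pia, so these cell types are the direct neighbours of astrocytes. The genes of these cells are not those that ACSA-2 selects for, and in bulk RNA fewer cells of a type and less RNA per cell cannot be told apart.

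Contractile genes are known to share a control element, the CArG box bound by serum response factor. The upstream sequence of Myl9, the member with the highest level among the smooth muscle genes, is printed because it holds such a box (in capitals). It is taken from RefSeq (GRCm38.p6), is read 5′ to 3′ on the plus strand, and stops at the base before the annotated start of the gene.
Myl9, chr2:156775214-156775419: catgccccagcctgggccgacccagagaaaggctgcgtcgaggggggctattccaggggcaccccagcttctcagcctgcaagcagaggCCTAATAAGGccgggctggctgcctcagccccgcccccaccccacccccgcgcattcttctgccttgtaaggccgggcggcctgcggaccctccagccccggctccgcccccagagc
The box lies 117 to 108 bases before the gene start. Windows of 250 bases upstream of a RefSeq start were searched on both strands for an exact match. A match was present in 1.47% of 32851 windows of all genes and in 2 of 29 windows of the 23 members with an entry, 1 of Myl9 and 1 of Igf2. The windows of Acta2 and Des held no exact match.

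Levels are given in TPM, a share of each library's RNA that is corrected for transcript length. TPM keep no read depth, so the depth behind each value is unknown and no counting interval is given. The 12 astrocyte markers that were checked summed to 15865 to 22846 TPM, whereas 7 border macrophage markers summed to at most 30.5 TPM and 8 blood leukocyte markers to at most 28.3 TPM. The 8 choroid plexus markers had a median sum of 28 TPM and reached 854 TPM in ipsilateral PTE- mouse 8_13, and the 12 endothelial markers summed to 365 to 2817 TPM. Sums were 542 to 4499 TPM for 12 oligodendrocyte markers and 502 to 12625 TPM for 6 erythrocyte markers. They were 120 to 903 TPM for 12 microglia, 51.8 to 935 TPM for 10 neuron and 236 to 1460 TPM for 8 ependymal markers. The 8 oligodendrocyte precursor markers summed to 1351 to 2499 TPM, with Cspg5 alone at an ipsilateral median of 1791 TPM. The ipsilateral library of PTE- mouse 9_14 stood apart. Only 10727 genes were above 0 in it, and 11 of the 35 members were listed at 0 there, including Acta2, Tagln, Myh11, Col1a2, Col3a1 and Lum, while it had the highest Vtn (4285 TPM) and Higd1b (349 TPM) of all libraries. In the other 36 libraries only Slc47a1 and Prg4 were ever listed at 0. For some results that rest on ipsilateral PTE- libraries, values without it are therefore also given.

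The members together made up 0.204% to 1.29% of a library's TPM (median 0.462%). Mean levels over the 37 libraries exceeded 100 TPM for 5 members, lay between 10 and 100 TPM for 13 and between 1 and 10 TPM for 17. Ptgds, which encodes prostaglandin D synthase and is also expressed by oligodendrocytes, had the highest mean (2923 TPM), followed by Vtn, which encodes the adhesion protein vitronectin (1286 TPM), Myl9, a myosin light chain (217 TPM), Mgp, matrix Gla protein (123 TPM), and the pericyte gene Higd1b (118 TPM). All other members had lower means than these.

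Among pericyte genes the means after Vtn and Higd1b were 65.1 TPM for Pdgfrb, 58.7 TPM for Rgs5, a regulator of G protein signalling, and 55 TPM for Atp13a5, a transport ATPase. The remaining pericyte genes were low. Notch3, a receptor of mural cells, and Abcc9, a subunit of the ATP-sensitive potassium channel, had means of 6.96 and 6.93 TPM, the transcription factor gene Tbx18 a mean of 3.09 TPM and Anpep, aminopeptidase N, a mean of 2.18 TPM. Smooth muscle genes covered a similar range, with Acta2 (smooth muscle actin) at 56.9 TPM, Tagln (transgelin) at 20.1 TPM, Des (desmin) at 6.46 TPM and Myh11 (smooth muscle myosin heavy chain) at 2.94 TPM. The contractile myosin heavy chain that defines the cell type was thus near the lower end of the members.

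Fibroblast matrix was led by Mgp and Dcn (61.2 TPM), the proteoglycan decorin. Fbln1 (fibulin 1) and Bgn (biglycan) had means of 21.4 and 21.3 TPM. The fibrillar collagen genes Col1a2, Col3a1 and Col1a1 were lower, at 10.3, 5.17 and 3.85 TPM, as were the proteoglycan genes Ogn (6.35 TPM) and Lum (6.23 TPM). Among meningeal factors, Igf2 reached 48.8 TPM, and Aldh1a2, which makes retinoic acid, 16.9 TPM. Crabp2, which binds retinoic acid, had a mean of 8.57 TPM, Myoc (myocilin) 6.37 TPM, the forkhead factor genes Foxc1 and Foxc2 5.05 and 1.92 TPM, and Prg4, which encodes the lubricating proteoglycan 4, 1.53 TPM, the lowest of the 35. The transporters followed the order Slc6a13 (GABA and taurine, 33.1 TPM), Slc13a4 (sulfate, 13.8 TPM), Slc22a6 (organic anions, 8.79 TPM) and Slc47a1 (organic cations, 4.99 TPM).

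**Figure D1:**
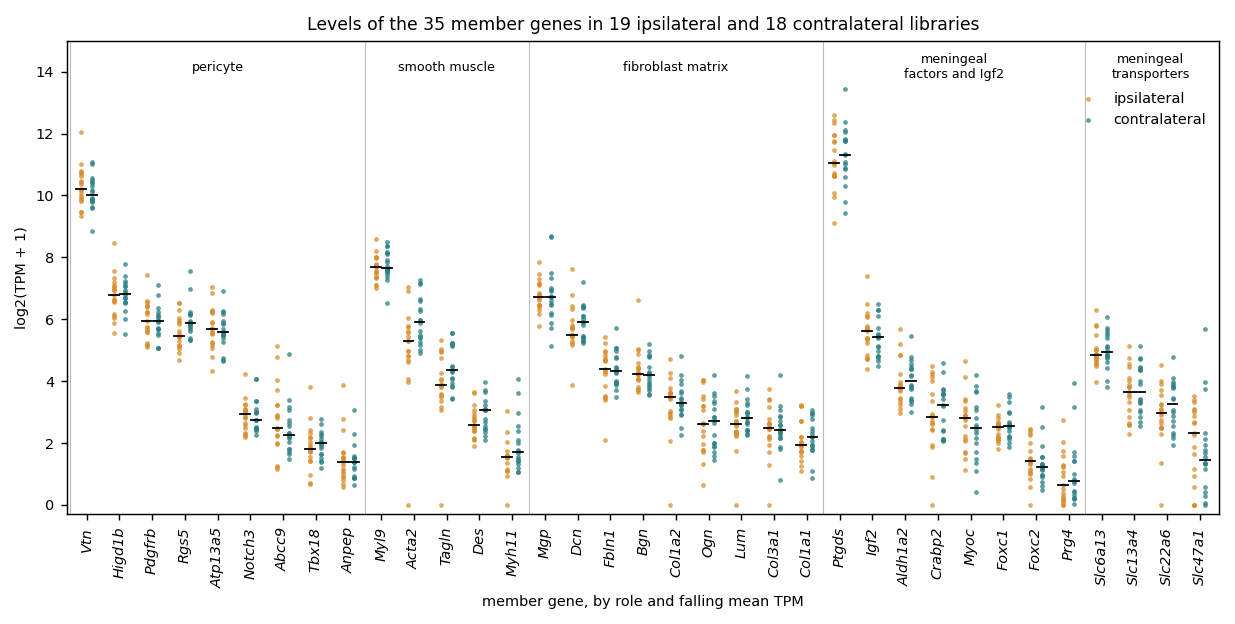
Level of each of the 35 members, as log2(TPM + 1), in 19 ipsilateral and 18 contralateral libraries (1 point a library, black bars the medians), ordered by role and falling mean TPM. Points at 0 are libraries in which the gene was listed at 0, and for 9 of the 11 members concerned the only such library is that of PTE- mouse 9_14.

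The members varied more between libraries of a group than most genes with a mean above 5 TPM did. The pooled within-group SD of log2(TPM + 1) had a median of 0.685 over the 35 members and of 0.41 over the 10235 genes with a mean above 5 TPM, and all 35 members lay above the latter. Members were taken at any level, down to a mean of 1.53 TPM for Prg4, so these sets were not matched for level. Slc47a1 varied most (SD 1.22, 0 to 50.4 TPM), followed by Acta2 (SD 1.19), Crabp2 (SD 1.05) and Abcc9 (SD 1.01). All SDs include library 9_14, in which Slc47a1, Acta2 and Crabp2 were listed at 0 and Abcc9 was highest (33.8 TPM). The order of the members without it was not determined. Foxc1 varied least (SD 0.425, 2.51 to 11 TPM), next to Myl9 (SD 0.468, 91.6 to 384 TPM).

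Members were also compared between the hemispheres of a mouse. Over the 17 mice with both libraries, the mean log2(TPM + 1) of the pericyte genes correlated between hemispheres with r = 0.702 and rho = 0.542 (r = 0.403 without the 2 mice farthest from the ipsilateral median). The corresponding values were r = 0.413 and rho = 0.37 for smooth muscle genes (r = 0.353 without 2 mice), r = -0.296 and rho = 0.0392 for fibroblast matrix (r = 0.243), r = 0.0085 and rho = 0.0858 for meningeal factors (r = -0.179), and r = -0.0478 and rho = 0.108 for transporters (r = 0.312). Gene by gene the median rho was 0.529 for the 9 pericyte genes, 0.375 for smooth muscle genes, 0.205 for meningeal factors, 0.0564 for transporters and 0.0343 for the 9 matrix genes, beside 0.429 for the 10235 genes with a mean above 5 TPM. Here too the members were not matched to those genes for level. Sham mouse 9_11 had the highest Pdgfrb in both hemispheres (173 and 138 TPM), and sham mouse 9_10 had the highest Col1a2 of all libraries contralaterally (27.1 TPM) and 3.16 TPM ipsilaterally. Each pair shares a mouse and its preparation day is not stated, so these correlations are descriptive and the difference between roles was not tested.

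The relations within and between roles were also described across libraries of 1 hemisphere. Over 18 ipsilateral libraries, leaving out 9_14, and 18 contralateral libraries, the median rho between members of the pericyte role was 0.679 and 0.489, beside 0.201 and 0.212 between pericyte genes and members of other roles. Smooth muscle genes had a median rho of 0.435 and 0.654 among themselves, beside -0.119 and 0.153 with other members. The score (mean log2(TPM + 1)) of smooth muscle genes was related to that of pericyte genes with r = -0.0991 and rho = -0.032 ipsilaterally (r = -0.0895 without the 2 farthest libraries) and with r = 0.18 and rho = 0.199 contralaterally (r = 0.0983). Pericyte and matrix scores gave r = 0.541 and rho = 0.562 ipsilaterally (r = 0.608) and r = 0.525 and rho = 0.616 contralaterally (r = 0.44). With the 12 endothelial markers the smooth muscle score gave r = 0.803 and rho = 0.822 ipsilaterally (r = 0.725) and r = 0.849 and rho = 0.92 contralaterally (r = 0.806). The pericyte score gave r = -0.135 and rho = -0.0279 with the endothelial markers ipsilaterally (r = 0.0339), and r = 0.394 and rho = 0.247 contralaterally (r = 0.167). With the 12 astrocyte markers the pericyte score gave r = 0.694 and rho = 0.616 ipsilaterally (r = 0.601) and r = 0.335 and rho = 0.379 contralaterally (r = 0.211).

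The scores of matrix, meningeal factor and transporter genes correlated with each other at r = 0.799 to 0.908 ipsilaterally (0.554 to 0.854 without the 2 farthest libraries) and r = 0.825 to 0.9 contralaterally (0.755 to 0.854), the lowest being matrix with transporters ipsilaterally. A group of high pairwise values was Ptgds with Aldh1a2, Crabp2, Slc6a13, Slc13a4 and Slc22a6, which were set apart after their values were seen and had a median rho over 15 pairs of 0.73 ipsilaterally and 0.864 contralaterally. Slc47a1 had a rho of 0.1848 to 0.4615 with these 6 genes ipsilaterally and of 0.1393 to 0.3994 contralaterally. Its rho was 0.5844 and 0.7152 with Foxc2, 0.566 and 0.61 with Mgp, and 0.762 and 0.3251 with Ogn. Libraries of 1 hemisphere share groups, and TPM sum to a fixed total, which the points of these correlations share.

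**Figure D2:**
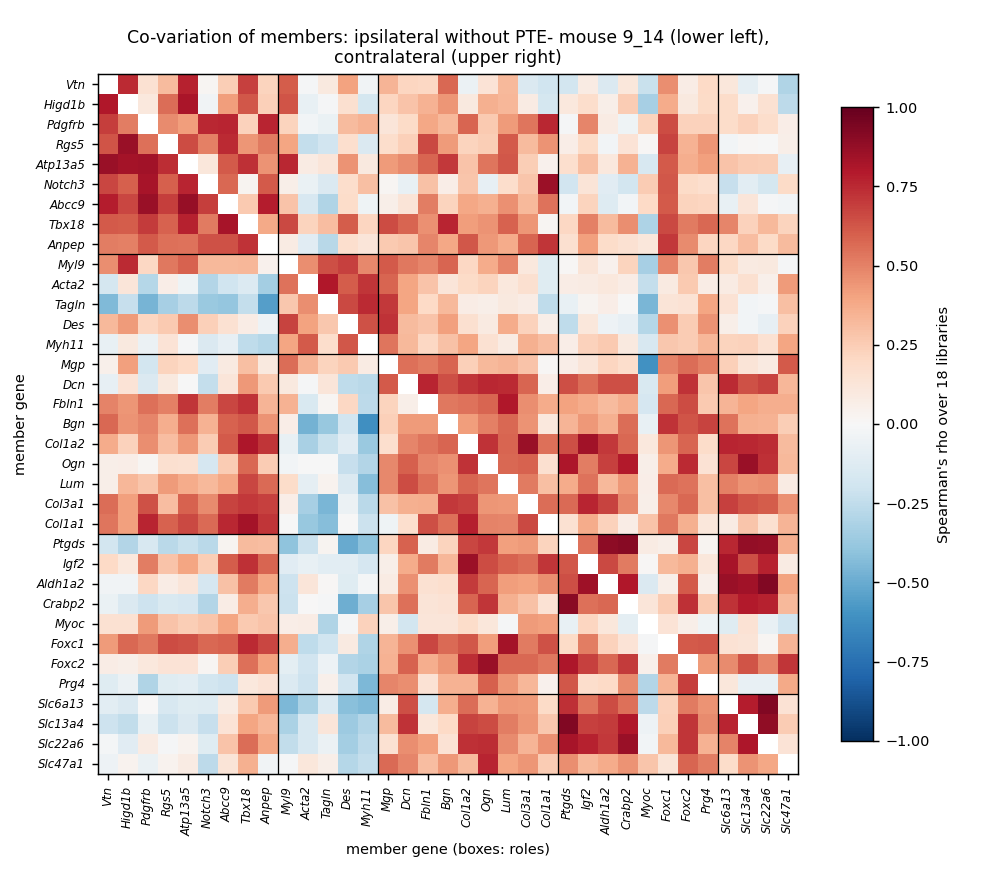
Spearman's rho between each pair of members over 18 ipsilateral libraries, without PTE- mouse 9_14 (lower left), and over 18 contralateral libraries (upper right), with genes in the order of the roles. Median rho between smooth muscle genes and members of other roles was -0.119 ipsilaterally and 0.153 contralaterally, with single pairs such as Myl9 and Atp13a5 at 0.5893 and 0.7564.

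To see whether injury or epilepsy moved these genes, log2(TPM + 1) was compared with limma between injured and sham mice and between PTE+ and PTE- mice in each hemisphere. A gene entered the test if its mean exceeded 5 TPM in any group of the comparison. It was called if the unadjusted p was below 0.05 and the fold change 1.2 or more, which are the thresholds of the study's methods. No member had an adjusted p (limma with Benjamini-Hochberg adjustment over all tested genes) under 0.05 in a comparison of groups or of hemispheres. Because of the added 1 TPM, fold changes of low genes come out too small. Single members were also tested by a two-sided exact permutation of the group labels over libraries. PTE+ and PTE- libraries enter both kinds of comparison.

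In the ipsilateral cortex, where the impact was made, 0 of the 28 members tested were called between 14 injured and 5 sham libraries, beside 1.62% of all 10434 tested genes. No member had an unadjusted p under 0.05 in limma or in the exact permutation test. The median log2 difference over all 35 members was 0.11, beside -0.01 over all tested genes, and it turned to -0.07 without sham mouse 9_10. By role the median was 0.04 for pericyte genes, -0.26 for smooth muscle genes, all 5 of which were lower on average after injury, 0.19 for matrix genes, 0.14 for meningeal factors and 0.17 for transporters. The smooth muscle median includes library 9_14, in which Acta2, Tagln and Myh11 were listed at 0.

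Slc47a1 (chr11:61343401-61378345, GRCm38) had the largest ipsilateral difference after injury. It measured 1.22, 3.78, 2.7, 0 and 0.49 TPM in the sham libraries, 3.97, 6.31, 0.93 and 7.63 TPM in PTE+ and 0 to 10.51 TPM (median 6.215) in PTE- libraries. Of the 14 injured libraries 10 were above the highest sham library, and the groups overlapped. The log2 difference of 1.15 ± 0.56 (SE) had p = 0.0543 in limma (adjusted p = 1) and p = 0.0722 by exact permutation. The gene entered the test only through the injured mean of 5.37 ± 3.51 TPM (SD, n = 14), the group in which it was high, and the sham mean was 1.64 TPM. Without 9_14 it was 1.33 (limma, p = 0.0129), and Fbln1 was then called as well (0.65, p = 0.029), beside 3.83% of 10424 genes. Slc47a1 also passed without PTE+ mouse 9_18, PTE- mouse 9_12, sham mouse 9_9 or sham mouse 8_16, in the last case with Ogn (1.02, p = 0.0487). The latter fits called 1.32% to 1.69% of all genes.

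The genes with the highest level of their role differed little between the ipsilateral groups. Vtn measured 1644.67, 960, 1013.91, 708.97 and 2061.42 TPM in sham, 1089.99, 1337.68, 1397.61 and 1155.92 TPM in PTE+ and 639.38 to 4284.64 TPM (median 1300.655) in PTE- libraries. Myl9 measured 254.92, 212.02, 127.32, 217.95 and 250.15 TPM in sham, 206.22, 213.81, 186.68 and 164.41 TPM in PTE+ and 135.48 to 383.54 TPM (median 181.21) in PTE- libraries. The highest value of each gene was that of library 9_14, and the other libraries of the groups overlapped throughout. Slc6a13 measured 25.91, 55.62, 43.92, 14.75 and 22.65 TPM in sham, 25.14, 32.31, 28.28 and 77.06 TPM in PTE+ and 21.59 to 54.1 TPM (median 27.505) in PTE- libraries. PTE+ mouse 9_19 was highest for Slc6a13, and for Igf2 it reached 166 TPM. Mgp measured 108.83, 227.87, 71.38, 86.76 and 104.9 TPM in sham, 86.4, 143.12, 87.85 and 101.87 TPM in PTE+ and 53.65 to 177.33 TPM (median 111.485) in PTE- libraries. Prg4 measured 0.55, 5.71, 0.1, 0 and 0.15 TPM in sham, 0.31, 1.08, 0.18 and 2.32 TPM in PTE+ and 0 to 3.1 TPM (median 1.14) in PTE- libraries. Sham mouse 8_16 was highest for Mgp and Prg4, and the other libraries of the groups overlapped.

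Among ipsilateral injured mice, 0 of 28 tested members were called between 4 PTE+ and 10 PTE- libraries, beside 0.573% of 10473 genes. The median difference over the members was 0.13, beside 0.12 over all tested genes. Acta2 had the largest, 0.76 ± 0.85 (SE, limma, p = 0.386, exact permutation p = 0.475), with PTE+ values of 65.2, 38.11, 45.65 and 27.26 TPM against 0 to 130.32 TPM (median 28.635) in PTE- libraries. The 0 was that of library 9_14, which lowers the PTE- mean on which this difference rests. Leaving out PTE+ mouse 8_10 called Igf2 (0.91, p = 0.041), leaving out PTE+ mouse 9_19 called Ptgds (-0.89, p = 0.00866) and leaving out 9_14 called Aldh1a2 (0.57, p = 0.0472). In the same order, these fits called 1.15%, 0.604% and 1.89% of all genes. Ptgds measured 980.39, 1693.27, 1590.92 and 6263.62 TPM in PTE+, 1572.59 to 3935.15 TPM (median 2519.08) in PTE- and 1586.21, 5569.98, 5200.34, 551.41 and 1085.15 TPM in sham libraries. Mouse 9_19 lay above every PTE- library and the other PTE+ values lay in the lower part of their range or under it.

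In the contralateral cortex, 2 of 31 tested members were called between 13 injured and 5 sham libraries, beside 4.05% of 10556 genes. Both were lower after injury, as were 371 of all 428 genes called. The 2 members were the transporter gene Slc47a1 and Prg4 (chr1:150449412-150466165), which are among the genes that the study itself names from these libraries, so their direction is not independent evidence. Matrix genes had a median difference of -0.34, meningeal factors -0.45, pericyte genes -0.18, transporters -0.12 and smooth muscle genes -0.11. The median over all 35 members was -0.25 and over all tested genes -0.07, and 5 of the 35 members were higher on average after injury, beside 33.5% of all tested genes.

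Slc47a1 was high in a pair of sham libraries. It measured 1.5, 14.55, 1.55, 50.42 and 1.54 TPM in sham mice 8_15, 8_16, 9_9, 9_10 and 9_11, 4.06, 2.84, 12.36 and 1.91 TPM in PTE+ and 0 to 3.42 TPM (median 0.5) in PTE- libraries. Mice 8_16 and 9_10 stood above all injured libraries and the other 3 sham libraries within their range. The log2 difference was -1.37 ± 0.65 (SE, limma, p = 0.048, adjusted p = 0.978), the exact permutation p was 0.0687, and the gene passed the filter of 5 TPM only through the sham mean of 13.9 ± 21.2 TPM (SD, n = 5). The call was lost in most of the alternatives tried, and without 8_16 and 9_10, chosen after seeing the data, the difference was 0.02.

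Prg4 followed the same libraries. It measured 0.7, 14.31, 0.37, 8.03 and 2.01 TPM in sham mice, in the same order, 0.62, 0.15, 1.68 and 0.26 TPM in PTE+ and 0.03 to 2.29 TPM (median 0.71) in PTE- libraries. Only mice 8_16 and 9_10 exceeded the injured range. The log2 difference was -1.27 ± 0.45 (SE, limma, p = 0.0104, adjusted p = 0.978, exact permutation p = 0.0172), and here too only the sham mean, 5.08 ± 6.01 TPM (SD, n = 5), exceeded 5 TPM. It was -0.22 without both mice. Mgp, also high in these libraries (404.99 and 408.39 TPM against 87.33, 51.4 and 120.44 TPM in the other sham mice), differed by -0.72 ± 0.40 (SE, limma, p = 0.0892) and was not called.

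Vtn, Myl9, Slc6a13 and Ptgds, each with the highest mean of its role, were not called in the contralateral cortex. Vtn measured 1270.44, 1391.6, 772.8, 881.82 and 2076.34 TPM in sham, 939.68, 970.04, 1097.76 and 1155.5 TPM in PTE+ and 466.08 to 2180.54 TPM (median 934.33) in PTE- libraries. Myl9 measured 192.88, 328.64, 91.62, 280.1 and 330.55 TPM in sham, 230.38, 189.79, 284.64 and 163.9 TPM in PTE+ and 154.88 to 362.71 TPM (median 195.65) in PTE- libraries. Groups overlapped for both, and sham mouse 9_9 was lowest of all libraries for Myl9. Slc6a13 measured 13.19, 30.93, 41.42, 34.03 and 44.13 TPM in sham, 28.21, 23.48, 33.3 and 20.34 TPM in PTE+ and 14.89 to 66.15 TPM (median 27.93) in PTE- libraries. Ptgds measured 691.72, 3652.55, 5301.08, 3484.05 and 3458.57 TPM in sham, 2608.37, 1255.67, 3509.63 and 1853.97 TPM in PTE+ and 887.44 to 11008.66 TPM (median 2166.53) in PTE- libraries. PTE- mouse 8_9 had the highest Ptgds of the 37 libraries, and the groups overlapped for both genes.

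Which members were called contralaterally depended on single libraries. No member was called without sham mouse 9_10, and Myoc alone (-1.07, p = 0.0418) without 8_16, beside 2.94% and 6.83% of all genes. Without sham mouse 8_15 there were 5 calls, Ogn, Mgp and Crabp2 being added, and without 9_9 there were 4, Foxc1 and Mgp being added. Of all genes, 3.35% were called without 8_15 and 8.34% without 9_9. Prg4 alone was called without PTE+ mouse 9_18 or PTE- mouse 8_9, 8_11, 8_14, 9_12, 9_13, 9_15 or 9_20, and Prg4 with Bgn (-0.46, p = 0.0404) without PTE- mouse 8_13. These fits called 2.91% to 5.1% of all genes. Within mice whose names begin with 8 and with 9 the difference was -1.29 and -1.42 for Slc47a1 and -1.51 and -1.13 for Prg4. Of other genes of these cell types, Pln (phospholamban, -0.60 ± 0.25) in the mural list and Ccn3 (a matricellular protein, -1.22 ± 0.47) and Ranbp3l (-0.35 ± 0.16) in the fibroblast and meningeal list were called lower after injury, out of 16 and 15 tested. In the ipsilateral cortex only Serpinf1 (0.64 ± 0.29), out of 16 and 13, was called.

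**Figure D3:**
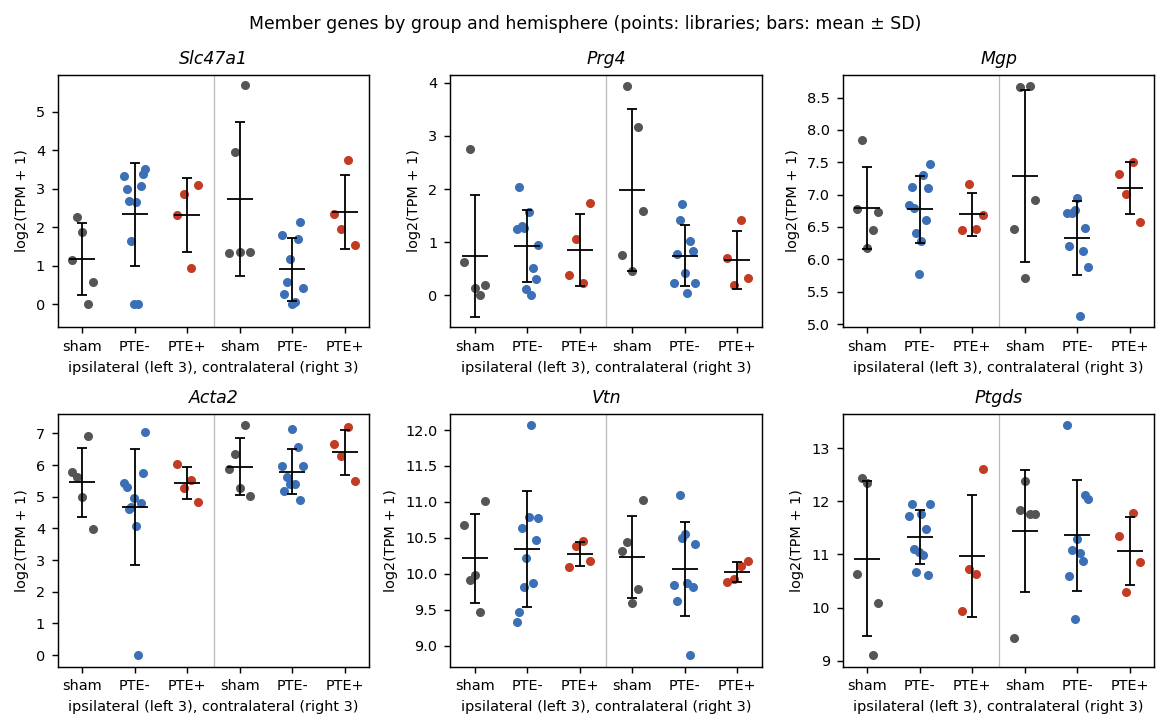
log2(TPM + 1) of the 4 members called in a comparison and of Vtn and Ptgds, in sham, PTE- and PTE+ libraries of the ipsilateral (left of the line) and contralateral cortex (right), with 1 point a library and mean ± SD. Contralateral sham values of Slc47a1 and Prg4 are spread by 2 libraries at 14.55 and 50.42 TPM and at 14.31 and 8.03 TPM, and the single 0 of Acta2 is PTE- mouse 9_14.

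Contralaterally, PTE+ and PTE- mice differed in 2 of 29 tested members that were called, beside 2.79% of 10423 genes. Both were higher in PTE+, as were 203 of all 291 genes called. The study itself names Slc47a1 as higher in PTE+ from these libraries, so the direction of this gene is not independent evidence. Slc47a1, with the values given above, exceeded the highest PTE- library in 2 of 4 PTE+ libraries and the PTE- median in 4 of 4. Its difference was 1.49 ± 0.48 (SE, limma, p = 0.00745, adjusted p = 0.999, exact permutation p = 0.0182), and only the PTE+ mean of 5.29 ± 4.79 TPM (SD, n = 4) exceeded 5 TPM. Mgp (chr6:136872435-136875823), an inhibitor of calcification, measured 158.75, 127.96, 180.85 and 94.35 TPM in PTE+ and 34 to 123.09 TPM (median 88.17) in PTE- libraries. All PTE+ values but that of 9_18 were above the PTE- range. Its difference was 0.77 ± 0.28 (SE, limma, p = 0.0139, adjusted p = 0.999, exact permutation p = 0.0322).

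Both calls were lost without PTE+ mouse 9_17, in which Slc47a1 and Mgp were highest of the group, and Igf2 alone (-0.77, p = 0.0294) was then called, beside 1.96% of 10260 genes. In that fit Mgp differed by 0.64 (p = 0.0582), and Slc47a1 by 1.04 without reaching the filter. Without PTE+ mouse 9_18 Acta2 and Myh11 were added (4 calls), and without PTE- mouse 9_12 Acta2, Des and Myoc (5 calls), beside 4.66% and 2.97% of all genes. Within mice named with 8 and with 9 the difference was 1.185 and 1.78 for Slc47a1 and 0.56 and 0.93 for Mgp. Of the 11 tested endothelial markers, 3 (Pecam1, Tek and Tie1) were also called higher in contralateral PTE+ libraries, in which the 12 markers summed to 881 to 2817 TPM (median 1745) against 584 to 1541 TPM (median 1105) in PTE- libraries, and the 7 border macrophage markers, of which Pf4 was called higher out of 2 tested, summed to 9.9 to 30.46 TPM (median 28.25) against 4.64 to 20.3 TPM (median 13.13). The part of these cells in the differences was not tested. Smooth muscle genes had a median difference of 0.46, with none called, pericyte genes 0.13, matrix genes 0.04, meningeal factors -0.19 and transporters -0.29. Over all 35 members the median was 0.08, beside 0.05 over all tested genes, and it turned to -0.11 without PTE+ mouse 9_17. Ccn3 (0.99 ± 0.34) and Sncg (0.62 ± 0.27), which encodes gamma-synuclein, were called among 12 and 15 tested genes of the other fibroblast and mural lists, both higher in PTE+, while ipsilaterally none of 13 and 15 was.

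Comparing the hemispheres of injured mice, 2 of 28 tested members were called, beside 2.51% of 10357 genes. The smooth muscle gene Acta2 (chr19:34241090-34255590) was lower and Slc47a1 higher in the ipsilateral cortex. Its ipsilateral values in injured mice are given above. Contralaterally it measured 100.08, 76.82, 144.68 and 43.82 TPM in PTE+ and 28.76 to 139.14 TPM (median 47.92) in PTE- libraries. In sham mice 8_15, 8_16, 9_9, 9_10 and 9_11 it measured 53.8, 48.27, 30.66, 119.94 and 14.76 TPM ipsilaterally and 57.43, 80.28, 37.34, 151.73 and 31.47 TPM contralaterally. Ranges of the hemispheres overlapped, with 6 of 14 ipsilateral injured libraries under the lowest contralateral one. The difference was -1.10 ± 0.43 (SE, limma, p = 0.0161, adjusted p = 0.974), and -0.72 (p = 0.0217) without mouse 9_14. All 5 smooth muscle genes were lower ipsilaterally on average, with a median difference of -0.48, and Tagln alone came near the threshold (-0.66 ± 0.37, p = 0.0805). The values for the role and for Tagln include library 9_14, in which Acta2, Tagln and Myh11 were listed at 0.

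Within mice the picture was less uniform. Acta2 was lower ipsilaterally in 8 of 12 injured mice, by 0.66 ± 1.05 (SD) on the log2 scale, and in 5 of 5 sham mice, by 0.49 ± 0.38 (SD). An exact sign-flip permutation over the 12 mice gave p = 0.0547. The smooth muscle score was lower in 8 of 12 injured and in 5 of 5 sham mice, with a mean difference of -0.36 in each. The score of the endothelial markers was lower in 9 of 12 and 4 of 5 mice, 7 of the 11 markers tested were called lower ipsilaterally in injured mice, and the part of vessel cells in the smooth muscle difference was not tested. Rgs5, a pericyte gene, was lower ipsilaterally in 10 of 12 injured mice, by 0.41 ± 0.40 (SD, exact sign-flip permutation p = 0.00488), and in 4 of 5 sham mice, with a mean difference of -0.47 ± 0.56 (SD). This p was the smallest sign-flip p among the 35 members and was not adjusted for their number. Rgs5 was not called in the unpaired fit (-0.38, p = 0.08), but with the mouse as a replicate block there were 3 calls, Rgs5 (-0.41, p = 0.00274), Acta2 (-0.66, p = 0.0111) and Slc47a1 (1.14, p = 0.00835), with adjusted p-values of 0.222, 0.354 and 0.322 in limma. The fit with the mouse as a block called 4.51% of 10350 genes. Pericyte genes as a role had a median difference of 0.15 in the unpaired fit.

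Within mice, Slc47a1 was higher ipsilaterally in 8 of 9 PTE- mice and listed at 0 on both sides in the ninth, and was lower in 3 of 3 PTE+ mice, by as little as 0.026 on the log2 scale in mouse 8_10, and in 4 of 5 sham mice. The PTE effect on Slc47a1 did not pass between hemispheres in the unpaired fit (limma, p = 0.135), and its adjusted p was 0.999 with the mouse as a replicate block. The mean within-mouse difference was 1.69 ± 1.04 (SD, n = 9), -0.50 ± 0.43 (SD, n = 3) and -1.56 ± 2.45 (SD, n = 5). Over the 12 injured mice together it was higher in 8, with p = 0.0176 in the exact sign-flip permutation, and the unpaired difference was 0.97 ± 0.45 (SE, limma, p = 0.0392, adjusted p = 0.974), or 1.14 (p = 0.0119) without 9_14. Only the ipsilateral mean of 5.37 TPM exceeded the filter, the contralateral mean of injured mice being 2.43 TPM, so the gene was admitted through the side where it was high. The unpaired call was lost when any of mice 8_9, 8_11, 8_13, 9_13, 9_15, 9_16, 9_19 or 9_20 was left out. Within injured mice named with 8 and with 9 the mean differences were 1.365 and 0.98 for Slc47a1 and -0.55 and -0.74 for Acta2. Ccn3 was higher (0.92 ± 0.45) and Ranbp3l lower ipsilaterally (-0.62 ± 0.29) among the other genes, of which 15 mural and 12 fibroblast and meningeal genes were tested.

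**Figure D4:**
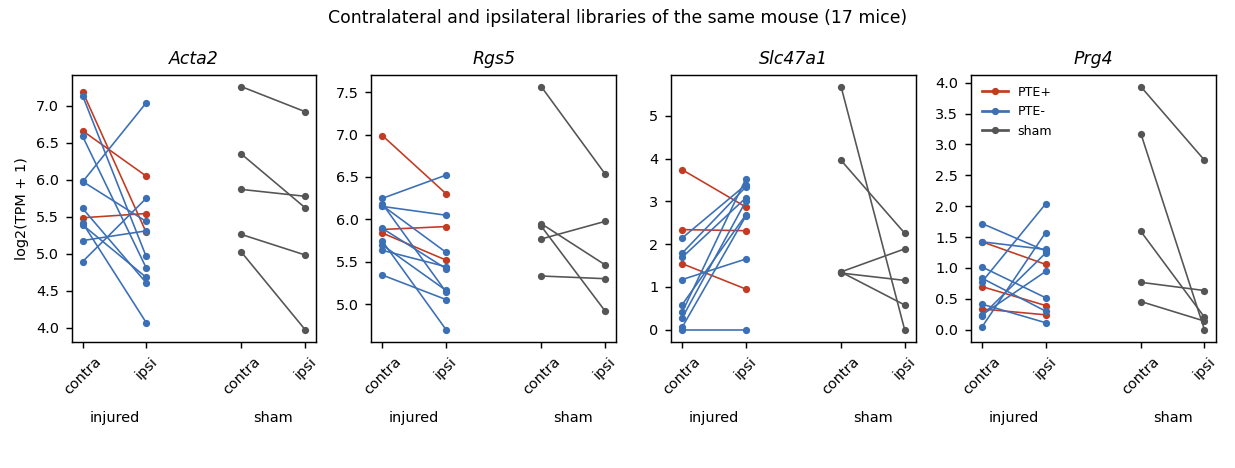
log2(TPM + 1) of Acta2, Rgs5, Slc47a1 and Prg4 in the contralateral and ipsilateral library of the same mouse, joined by a line, for 12 injured and 5 sham mice. Lines of Rgs5 fall in 10 of 12 injured and 4 of 5 sham mice, and those of Slc47a1 climb in 8 of 9 PTE- mice and fall in the 3 PTE+ mice, in 1 of them by only 0.026.

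The effect of injury itself was then compared between hemispheres. The difference between the ipsilateral and contralateral effect was called for 2 of 31 members, beside 1.31% of 10706 genes. It was positive for both, as for 133 of all 140 genes called. It was 2.52 ± 0.87 for Slc47a1 (SE, limma, p = 0.00614) and 1.43 ± 0.63 for Prg4 (p = 0.029), with adjusted p-values of 1. Prg4 was admitted only through the contralateral sham mean of 5.08 TPM, which mice 8_16 and 9_10 carried, and Slc47a1 through that of 13.9 TPM and the ipsilateral injured mean of 5.37 TPM, so both entered through groups that set the difference. The median over the 35 members was 0.46, beside 0.05 over all tested genes, and 0.06 without sham mouse 9_10, without which no member was called. Prg4 was lower ipsilaterally in 5 of 5 sham mice and in 8 of 12 injured mice. With the mouse as a replicate block the calls were Slc47a1 (2.70, p = 0.00124), Prg4 (1.39, p = 0.00747) and Fbln1 (0.86, p = 0.0115), beside 6.27% of 10695 genes. Without sham mouse 9_11 Slc47a1 alone was called, and without 9_14 Slc47a1 (p = 0.00221), Prg4 (p = 0.0233) and Fbln1 (p = 0.04). Col6a2, a collagen VI chain (1.34 ± 0.57), and Gjb2, a connexin of meningeal cells (0.76 ± 0.37), were called among 15 tested genes of the other fibroblast and meningeal list, and none of the 16 of the mural list was.

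For the effect of epilepsy, 0 of 30 tested members differed between hemispheres, beside 0.112% of 10681 genes, with a median of 0.02 over the members and 0.07 over all tested genes. With the mouse as a replicate block Slc47a1 was called (-2.18 ± 0.90, limma, p = 0.0246, adjusted p = 0.999), beside 2.63% of 10683 genes. In the unpaired fit it had a difference of -1.51 ± 0.99 (p = 0.135). In both fits Slc47a1 exceeded the filter of 5 TPM only in the ipsilateral PTE- and contralateral PTE+ means. It was thus admitted through the groups whose high values make the difference negative. Without PTE+ mouse 9_17, Igf2 was called (1.25, p = 0.0352).

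Members also differed by the names of the mice. Names begin with 8 or 9, and the labels and methods do not say what the first digit stands for. It was taken up as a comparison after the data had been seen, with the group as a covariate. In ipsilateral libraries 6 of 27 tested members were called, beside 24.3% of 10494 genes, a share close to the background, and all 6 were higher in the 12 libraries of mice named with 9 than in the 7 of mice named with 8. Of all genes called there, 2017 were higher and 530 lower in mice named with 9. Pdgfrb had a difference of 0.92 ± 0.19 (SE, limma, p = 0.000133) and an adjusted p of 0.0146. It measured 33.29 to 53.39 TPM (median 36.78) in mice named with 8 and 49.48 to 173.1 TPM (median 78.86) in mice named with 9, with 10 of the 12 latter above all of the former, and the difference was 0.93 (p = 0.000121) without 9_14. Abcc9 (1.33 ± 0.44, adjusted p = 0.0638), Atp13a5 (0.72 ± 0.27, adjusted p = 0.101) and Notch3 (0.51 ± 0.24, adjusted p = 0.182) were the other pericyte genes called, with Igf2 (0.82 ± 0.27, adjusted p = 0.0617) and Myoc (0.95 ± 0.37, adjusted p = 0.112).

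All 9 pericyte genes were higher in ipsilateral libraries of mice named with 9, with a median difference of 0.67, beside 0.11 over all tested genes, of which 62.9% were higher. Contralaterally 7 of 9 were higher, with a median of 0.31, beside 0.12 over all tested genes, of which 68.9% were higher. Ipsilaterally smooth muscle genes had a median of 0.02 and none called. In contralateral libraries 5 of 30 tested members were called, beside 19.2% of 10539 genes, a share close to the background. Of all genes called there, 1828 were higher and 199 lower in mice named with 9. All 5 members were higher in the 10 libraries of mice named with 9 than in the 8 of mice named with 8. These were Pdgfrb (0.55 ± 0.21), Abcc9 (0.73 ± 0.33), Col1a2 (0.66 ± 0.23), Col3a1 (0.66 ± 0.29) and Igf2 (0.52 ± 0.24), with adjusted p-values of 0.123 to 0.217 in limma. Pdgfrb measured 32.54 to 68.89 TPM (median 48.88) and 43.94 to 137.8 TPM (median 64.37) there, and the ranges overlapped. Markers of other cell types were also called ipsilaterally, beside 24.3% of all tested genes. There 7 of 12 astrocyte markers were higher and 6 of 10 tested oligodendrocyte, 6 of 9 neuron and 3 of 11 endothelial markers lower in mice named with 9. Contralaterally, beside 19.2% of all tested genes, 6 of 8 ependymal and 2 of 11 microglia markers were higher and 2 of 10 oligodendrocyte markers lower. The ipsilateral endothelial and the contralateral microglia and oligodendrocyte counts were near the share of all genes. The part of these cell types in the differences of the members was not tested. Of the other genes of these cell types, Cspg4, which oligodendrocyte precursors also express, and Gper1 in the mural list and Cped1 in the fibroblast list were called higher ipsilaterally, and Pdgfra contralaterally.

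**Figure D5:**
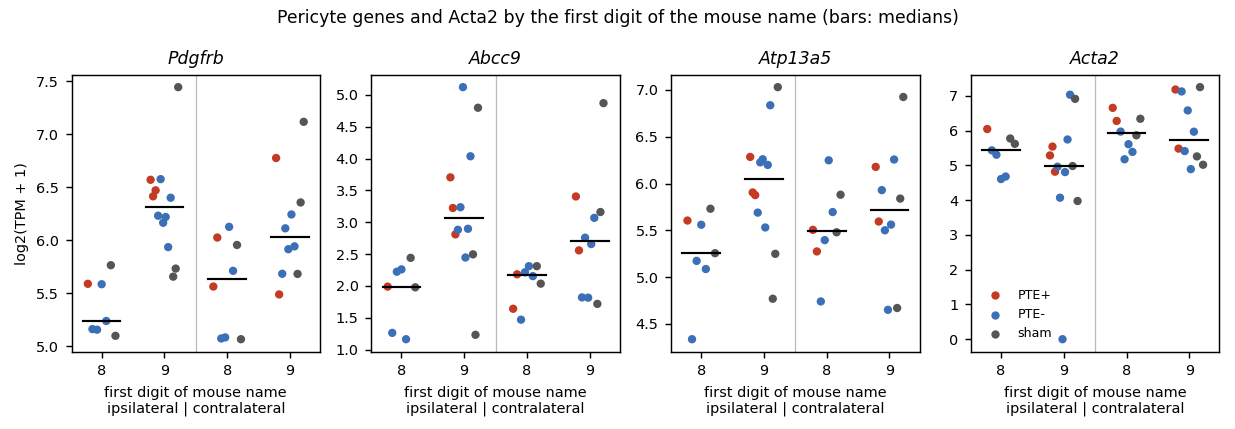
log2(TPM + 1) of Pdgfrb, Abcc9, Atp13a5 and Acta2 in libraries of mice whose names begin with 8 or 9, ipsilateral on the left and contralateral on the right of each panel (1 point a library coloured by outcome, bars are medians). Ipsilateral Pdgfrb lies at 33.29 to 53.39 TPM for 8 and 49.48 to 173.1 TPM for 9, while Acta2 overlaps throughout.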

How the data were processed

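RNA of ACSA-2+ cells from 37 samples was measured by sequencing. Libraries were made with SMART-Seq v4. The authors trimmed reads with Trim Galore 0.6.4 and quantified them on mm10 with RSEM 1.2.28 and Bowtie2 2.4.1, and deposited TPM per Ensembl gene, in 1 table per hemisphere. They tested counts with DESeq2 1.36.0. The annotation release is not given in the sources used here. Symbols and positions are from GENCODE vM21 (GRCm38), which named 21856 genes and left 119 unnamed. TPM correct for length but keep no depth, and a few abundant genes lower all others. Each table was tested within itself, and hemispheres were compared on TPM as deposited.

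Members, roles and lists were chosen with earlier results of these data known. Values were log2(TPM + 1), with a filter of a mean above 5 TPM in a group compared, and were fitted with limma 3.58.1 (R 4.3.3) with a variance trend. Adjusted p-values are Benjamini-Hochberg over all genes tested. For single members, the exact permutation test (two-sided) enumerated 11628, 1001, 8568 and 715 labellings of the libraries in the comparisons of ipsilateral injury and PTE and of contralateral injury and PTE, and 4096 sign flips of 12 paired mice, with smallest possible p-values of 8.6e-05, 0.000999, 0.000117, 0.0014 and 0.000488. Nothing states that samples of a group were processed separately, so p-values measure the spread between these samples. The labels name the mouse, so hemispheres are paired. Over 10235 genes, deviations of the 17 mice from their group means correlated between hemispheres at a median of 0.412 (0.0418 to 0.686, above 0.1 in 16). On simulated data with 200 genes changed by a fold of 2 among the tested genes, 81%, 82%, 95.5% and 94.5% of them were called in the same order of comparisons. These shares are over tested genes of any kind. All 35 members had an SD above the median of genes with a mean above 5 TPM (median 0.685 against 0.41), a set not matched to them for level. The share of changed members that would be called was not tested. For ipsilateral PTE, 4.94% of unchanged genes had a limma p under 0.05 on that data, against 63 of 10473 genes in the libraries. Every member is named, and values are given by library for members called between groups or hemispheres and for the member with the highest mean TPM of each role. Of the other lists, called genes are named, at most 4 for each comparison. Alternatives were a pseudocount of 0.1, no filter or a mean above 1 TPM over all libraries, quantile normalization, median centring, array weights, the first digit of the mouse name as a covariate, the mouse as a block, the log2 ratio of mean TPM and leaving out each library or mouse. Tables were made with pandas 2.3.3 and scipy 1.17.1 in Python 3.11.15, and figures with matplotlib 3.10.9.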

Additional observations from a re-analysis of the deposited data

Results flagged for a closer look

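Among 8 members and 5 role scores in 6 groups, Dixon's test on the log2 scale marked 5 of 78 sets of values as holding a library far from the rest of their group, where chance marks about 1 in 20 groups. Acta2 was lowest, listed at 0 TPM, in ipsilateral PTE- mouse 9_14, and Slc6a13 was highest there, at 54.1 TPM. Prg4 was highest in ipsilateral sham mouse 8_16, at 5.71 TPM, where the other sham libraries held at most 0.55 TPM, and the contralateral library of the same mouse held 14.31 TPM. Myl9 was lowest in ipsilateral sham mouse 9_9, at 127.3 TPM, and its contralateral library, at 91.62 TPM, was the lowest of all 37. Ptgds was lowest in contralateral sham mouse 8_15, at 691.7 TPM.

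The effect of injury differed between hemispheres for Slc47a1 by 2.52 on the log2 scale (limma, p = 0.00614, adjusted p = 1) and for Prg4 by 1.43 (p = 0.029, adjusted p = 1). Contralaterally both were highest in sham mice 8_16 and 9_10, and ipsilaterally both were listed at 0 in 9_10.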

How the results depend on the processing

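TPM carry no depth, so low members cannot be weighed by counts. Alternatives were counted only for members called in the main fits, those by the first digit included. Most are fits with 1 library or mouse left out, which overlap. Between groups or hemispheres, calls were kept in 9 of 27 (Slc47a1, contralateral injury) to 27 of 27 alternatives (Acta2, hemispheres). The alternatives kept the side of the threshold of 382 values of single members, took 91 under it and reversed 1, Slc47a1 after contralateral injury, which was 0.0213 without sham mice 8_16 and 9_10. Without both, 0 members were called there, beside 4.53% of 10630 genes. Only Prg4, 1 call, was left there with a pseudocount of 0.1, no filter, with the first digit as a covariate, with array weights, or after median centring or quantile normalization. These fits called 3.36% to 5.76% of all genes. Array weights gave 1 call in each ipsilateral comparison, 6 for contralateral PTE, 5 for the difference in injury effect and 4 for that in PTE effect. Of all tested genes they called 8.08% for ipsilateral injury, 4.21% for ipsilateral PTE and 7.94% for contralateral PTE. The shares were 11.3% for the difference in injury effect and 4.58% for that in PTE effect. Quantile normalization gave 1 call for ipsilateral injury (2.16% of all genes) and 2 for the contralateral first digit, and median centring 2 there and 1 for the difference in injury effect (1.06% of all genes). A pseudocount of 0.1 gave 1 call between hemispheres (2.25% of all genes). The mouse as a replicate block gave 1 call for the difference in PTE effect (2.63% of all genes), and its other changes stand beside the results. Leaving out 1 library or mouse gave 0 to 2 calls for ipsilateral injury (medians -0.07 to 0.21), 0 to 1 for ipsilateral PTE (0.02 to 0.26), 0 to 5 for contralateral injury (-0.41 to -0.13), 1 to 5 for contralateral PTE (-0.11 to 0.17), 1 to 3 between hemispheres (-0.06 to 0.10), 0 to 3 for the difference in injury effect (0.0574 to 0.59), 0 to 1 for that in PTE effect (-0.06 to 0.22), and 4 to 8 and 2 to 8 for the first digit. With 1 library left out, the share of all genes called was 1.32% to 4% for ipsilateral injury and 0.22% to 1.89% for ipsilateral PTE. It was 2.21% to 8.34% for contralateral injury and 1.96% to 4.66% for contralateral PTE. The cause of the changes in calls was not tested. The first digit as a comparison, leaving out both sham mice and other alternatives added later were chosen after seeing the data.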
